A study of Mus musculus with 12 samples.

Results

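Genes of the cell cycle were examined in neutrophils from mammary tumors and from bone marrow (BM). The 42 genes were taken by symbol and found by Ensembl identifier among the 55335 genes that each library lists. They comprise 22 genes of mitosis and the G2/M step, 15 genes of DNA replication and the G1/S step, and 5 G1 cyclins and inhibitors of cyclin-dependent kinases (CDKs). Tumor-associated neutrophils (TANs) came from PyMT mice, which carry the polyoma middle T oncogene and develop mammary tumors, and from PyMT-Cxcr2-/- mice, which carry the same oncogene and also lack the chemokine receptor Cxcr2. The third group was BM neutrophils of WT mice, with neither the oncogene nor the deletion. All mice were FVB, 10 weeks old and housed under SOPF conditions, which exclude specific and opportunistic pathogens, with 4 libraries per group. Mammary gland tumors (glands 4 and 9) were cut up and digested with enzymes, while BM cells were spun out of femurs and tibias with no enzyme step named, and neutrophils of both tissues were enriched for CD11b and then sorted as CD45+ CD11b+ Ly6G+ F4/80- cells. The loss of Cxcr2 was not restricted to neutrophils, and no BM of tumor-bearing mice was part of the series. Tissue, oncogene and digestion therefore differ together between TANs and BM neutrophils and cannot be told apart. Each replicate was taken as 1 mouse, since the sources used here state neither pooling nor its absence, and p-values measure the spread between these replicates.

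A cell that enters the cycle first makes D-type cyclins, which activate CDKs in G1 and free the E2F factors from the retinoblastoma protein. E2F factors then drive the genes of DNA replication, such as the MCM helicase, and the genes of mitosis follow later through the MuvB and FoxM1 factors. Neutrophils are made in the BM by promyelocytes and myelocytes that still divide, whereas the later stages, up to the segmented cell that leaves for blood and tissue, are out of the cycle.

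Depth was 25032704 to 51351569 counts on genes per library, so that 3 counts, taken as the smallest level this depth can show, correspond to 0.0584 to 0.12 CPM, the usual unit of a gene's count scaled to the size of its library. This floor covers counting error only. The share of reads that fell on no gene was 32% to 52.5%. Cxcr2 was at 8.97 to 10.1 CPM in PyMT-Cxcr2-/- TANs, against 1030 to 1536 CPM in PyMT TANs and 1818 to 2250 CPM in WT BM neutrophils. Ly6g, the gene of the sorted surface marker, was at 20 to 48.4 CPM in PyMT TANs, 106 to 183 CPM in PyMT-Cxcr2-/- TANs and 477 to 655 CPM in WT BM neutrophils. The sum over 8 neutrophil markers was 9917 to 15619, 16292 to 26628 and 68472 to 90272 CPM in the same order. Markers of other cell types were present in the TAN libraries. For 8 fibroblast and endothelial markers the sum was 19.7 to 43 CPM in PyMT TANs and 24.8 to 57.4 CPM in PyMT-Cxcr2-/- TANs. In WT BM neutrophils it was 11.9 to 15.2 CPM. The sum over 8 macrophage markers was 1327 to 2634 CPM in PyMT TANs, 1332 to 2205 CPM in PyMT-Cxcr2-/- TANs and 237 to 331 CPM in WT BM neutrophils, and Adgre1, which encodes the F4/80 antigen that the sort was set to leave out, was at 69.2 to 187, 78 to 143 and 8.64 to 12.1 CPM. The sum over 10 epithelial and milk markers was 49.3 to 458 CPM in PyMT TANs, 86.1 to 327 CPM in PyMT-Cxcr2-/- TANs and 0.0599 to 0.514 CPM in WT BM neutrophils, where 6 of the 10 genes, among them Krt8 and Csn3, were at 0 in all 4 libraries. The part of these cells in the results that follow was not tested beyond the values given beside them. In bulk samples, fewer cells of a type and less RNA per cell cannot be told apart.

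Of the 42 genes, 41 had counts high enough to be tested in each of the 3 comparisons. The exception was Kif11, the motor that pushes the spindle poles apart, with 0 counts in the 8 TAN libraries and 0 to 2 counts in the BM libraries. Nek2 and Atad2, of the further lists given below, were at 0 in all libraries. The cause was not tested, and Kif11 was kept in means over the 22 mitosis genes. Genes were called changed at a Benjamini-Hochberg adjusted p under 0.05 in edgeR's quasi-likelihood test and a fold change of at least 1.5. In PyMT TANs against WT BM neutrophils, 12 of the 41 genes were higher and 8 lower, where 30.1% of all 17153 genes tested were higher and 23.2% lower (53.3% in either direction). With Cxcr2 deleted, TANs had 9 genes higher and 22 lower than WT BM neutrophils, where 34.4% of all 17732 genes tested were higher and 25.1% lower (59.5% in either direction). The counts of higher genes thus lay near or below the share of all genes, and so did the count of lower genes in PyMT TANs, whereas the 22 lower genes in PyMT-Cxcr2-/- TANs were 53.7% of those tested. Both comparisons use the same BM libraries. The groups of genes differed: 18 of 21 mitosis genes were lower in PyMT-Cxcr2-/- TANs but 5 of 21 in PyMT TANs, most of the MCM genes were higher, and the G1 genes changed in both directions, with Cdkn1a far ahead of the other genes in size.

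**Figure D1:**
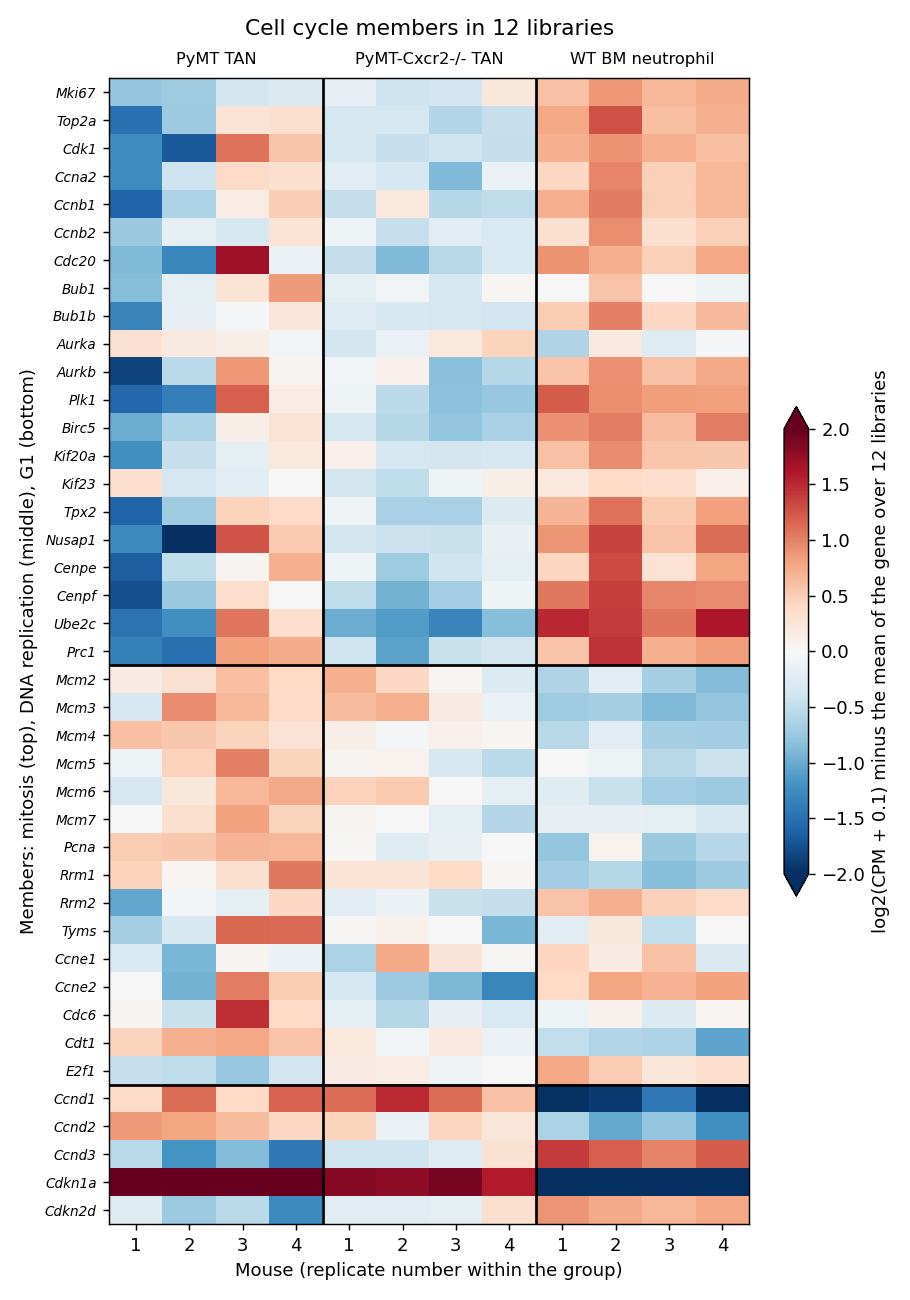
Level of each tested gene (rows, ordered by mitosis, DNA replication and G1 genes) in each of the 12 libraries (columns), as log2(CPM + 0.1) minus the mean of the gene over the 12 libraries, with the color scale ending at -2 and 2. Most mitosis rows are low in PyMT replicates 1 and 2 and high in the 4 BM libraries, while Ccnd1, Ccnd2 and Cdkn1a are high in the 8 TAN libraries.

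The 5 G1 genes were called in both comparisons with WT BM neutrophils, 3 as higher and 2 as lower in TANs. Of all genes tested, 30.1% were higher and 23.2% lower in PyMT TANs, and 34.4% and 25.1% in PyMT-Cxcr2-/- TANs. Cdkn1a encodes p21, which inhibits CDKs and is a classical target of p53. It was at 440.0, 299, 306 and 293 CPM in PyMT TANs, at 188, 183, 199 and 159 CPM in PyMT-Cxcr2-/- TANs, and at 1.26, 3.11, 3 and 2.82 CPM in WT BM neutrophils. Every TAN library was above every BM library and the 2 types of TANs did not overlap. Cdkn1a rose 138-fold in PyMT TANs (log2 fold change 7.11 ± 0.29 SE, adjusted p = 2.94e-08, edgeR) and 77.7-fold in PyMT-Cxcr2-/- TANs (6.28 ± 0.23, adjusted p = 5.57e-10, edgeR). Cdkn1a shares exon bases with a gene of the other strand, as do Ccnd1, Ccnd2 and Ccnd3, and Ccnd3 also has a named pseudogene copy, so their counts are uncertain where the counting could not separate the strands or the copies.

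The 3 D-type cyclins, which bind Cdk4 and Cdk6, did not move together. Ccnd1 was at 9.05, 15.2, 9.17 and 15.9 CPM in PyMT TANs, at 15.1, 19.7, 15.1 and 10.5 CPM in PyMT-Cxcr2-/- TANs, and at 1.68, 1.77, 2.51 and 1.59 CPM in WT BM neutrophils. It rose 6.9-fold in PyMT TANs (log2 fold change 2.79 ± 0.30 SE, adjusted p = 1.3e-05, edgeR) and 8.7-fold in PyMT-Cxcr2-/- TANs (3.12 ± 0.24, adjusted p = 1.07e-07, edgeR). The TANs did not overlap with BM in either comparison. Ccnd2 was at 49.1, 47.2, 42.3 and 36.2 CPM in PyMT TANs, at 37.1, 24.9, 36.7 and 32.1 CPM in PyMT-Cxcr2-/- TANs, and at 17.6, 13.4, 15.7 and 11.6 CPM in WT BM neutrophils. Its rise was 3.16-fold (1.66 ± 0.17, adjusted p = 8.81e-06, edgeR) and 2.44-fold (1.29 ± 0.16, adjusted p = 8.27e-06, edgeR), again without overlap with BM. Ccnd3 went the opposite way. It was at 931, 808, 708 and 825 CPM in WT BM neutrophils, at 244, 154, 194 and 131 CPM in PyMT TANs, and at 268, 268, 297 and 439 CPM in PyMT-Cxcr2-/- TANs. It fell 4.28-fold in PyMT TANs (log2 fold change -2.10 ± 0.18 SE, adjusted p = 3.25e-06, edgeR) and 2.37-fold in PyMT-Cxcr2-/- TANs (-1.25 ± 0.16, adjusted p = 9.88e-06, edgeR), and each BM library was above each TAN library.

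On the scale of CPM per kb of exon, which allows genes to be compared, Ccnd3 made up 97.9% ± 0.425 (SD, n = 4) of the level of the 3 D-type cyclins in WT BM neutrophils, 73.2% ± 6.27 in PyMT TANs and 83.8% ± 4.08 in PyMT-Cxcr2-/- TANs. It remained the most abundant D-type cyclin in each of the 12 libraries, with a lowest share of 67.5%. Ccnd1 made up 0.432% ± 0.144, 10% ± 4.6 and 7.9% ± 2.97 in the same order. Cdkn2d, which encodes the CDK4 and CDK6 inhibitor p19, was at 192, 176, 166 and 178 CPM in WT BM neutrophils, at 87.9, 63.3, 71.9 and 42.9 CPM in PyMT TANs, and at 90.5, 89.1, 91.8 and 131 CPM in PyMT-Cxcr2-/- TANs. The 2 CDK inhibitors thus moved in opposite directions, since Cdkn2d fell 2.54-fold in PyMT TANs (log2 fold change -1.34 ± 0.18 SE, adjusted p = 7.96e-05, edgeR) and 1.63-fold in PyMT-Cxcr2-/- TANs (-0.70 ± 0.12, adjusted p = 0.000184, edgeR). The fall of Cdkn2d was smaller than 2-fold in PyMT-Cxcr2-/- TANs.

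**Figure D2:**
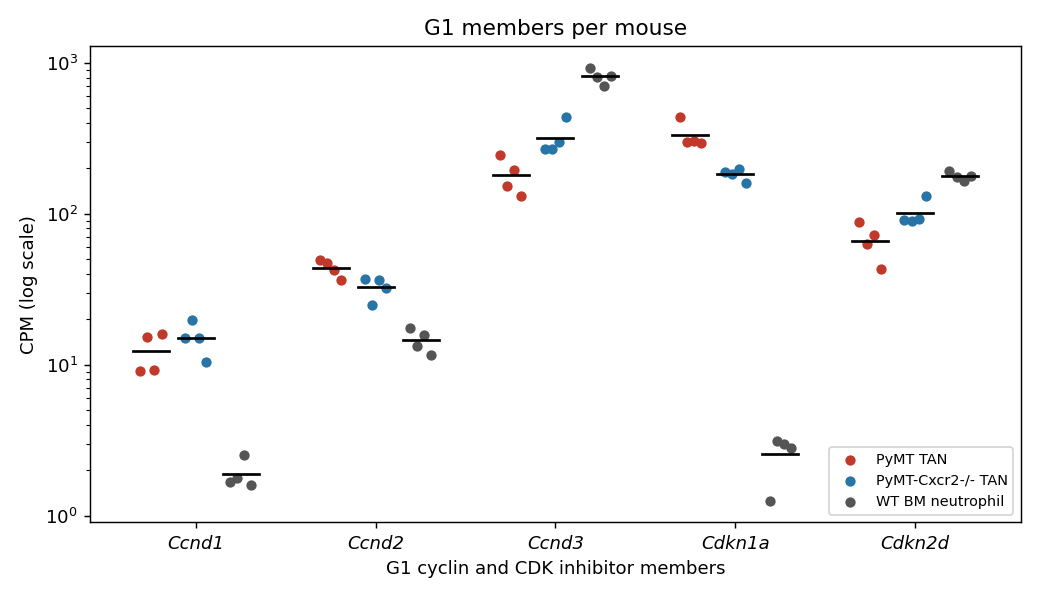
CPM of the 5 G1 genes (log scale) in each library, with 1 point per library, the groups in colors and black lines at the group means. Cdkn1a lies between 1.26 and 3.11 CPM in the BM libraries and between 159 and 440.0 CPM in the TAN libraries, while Ccnd3 and Cdkn2d lie lower in all TAN libraries than in the BM libraries.

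Among the 15 genes of DNA replication and the G1/S step, 9 were higher and 1 lower in PyMT TANs than in WT BM neutrophils, with a median log2 fold change of 0.85, where the median of all genes was 0.09. PyMT-Cxcr2-/- TANs had 6 higher and 2 lower, with a median of 0.21. The share higher was 60% in PyMT TANs, against 30.1% of all genes tested. In PyMT-Cxcr2-/- TANs it was 40%, near the 34.4% of all genes. The shares lower, 6.67% and 13.3%, were below 23.2% and 25.1%. The 6 genes higher in both were Mcm2, Mcm3, Mcm4, Mcm6, Rrm1 and Cdt1. Mcm5, Mcm7 and Pcna were called in PyMT TANs alone. The groups did not overlap in 7 genes that were higher and 1 that was lower in PyMT TANs, and in 5 and 3 in PyMT-Cxcr2-/- TANs. Over all genes tested, 28.4% and 29.7% did not overlap in the first comparison and 32.5% and 33.3% in the second.

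The MCM genes encode the 6 subunits of the replicative helicase. Mcm3 was at 8.95, 21.9, 18 and 14.9 CPM in PyMT TANs, at 17.6, 18.8, 12.8 and 10.4 CPM in PyMT-Cxcr2-/- TANs, and at 6.89, 7.16, 6.14 and 6.54 CPM in WT BM neutrophils. It rose 2.53-fold (log2 fold change 1.34 ± 0.27 SE, adjusted p = 0.00123, edgeR) and 2.43-fold (1.28 ± 0.20, adjusted p = 5.67e-05, edgeR), and no TAN library overlapped with BM. Mcm4 was the most abundant of the 6 per kb in each group, and had 46.1, 44.2, 41.5 and 37.2 CPM in PyMT TANs, against 33.1, 29.9, 32.6 and 31.3 CPM in PyMT-Cxcr2-/- TANs and 20.7, 26, 19.1 and 18.8 CPM in WT BM neutrophils. Its rise was 2.11-fold (1.08 ± 0.14, adjusted p = 7.23e-05, edgeR) and 1.63-fold (0.70 ± 0.12, adjusted p = 0.000144, edgeR). For Mcm4 the 3 groups were in separate ranges. Mcm2 was at 8.61, 9.49, 11.7 and 10.1 CPM in PyMT TANs, at 12.6, 10.2, 7.83 and 6.31 CPM in PyMT-Cxcr2-/- TANs, and at 5.03, 6.51, 4.8 and 4.16 CPM in WT BM neutrophils. It rose 2.07-fold in PyMT TANs (1.05 ± 0.23, adjusted p = 0.00203, edgeR) and 1.97-fold in PyMT-Cxcr2-/- TANs (0.98 ± 0.23, adjusted p = 0.00194, edgeR), in the latter with 1 TAN library inside the BM range.

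Mcm6 was at 8.18, 12.1, 16.5 and 17.6 CPM in PyMT TANs, at 14.3, 14.9, 10.3 and 9.02 CPM in PyMT-Cxcr2-/- TANs, and at 8.78, 7.56, 6.4 and 6.23 CPM in WT BM neutrophils, with 1 PyMT library inside the BM range. It rose 2-fold (adjusted p = 0.00784, edgeR) and 1.82-fold (log2 fold change 0.87 ± 0.20 SE, adjusted p = 0.0016, edgeR). Mcm5 was at 13.4, 19.7, 28.9 and 19.5 CPM in PyMT TANs, at 14.9, 15.1, 11.4 and 9.79 CPM in PyMT-Cxcr2-/- TANs, and at 14.4, 13.4, 9.77 and 10.6 CPM in WT BM neutrophils. It rose 1.8-fold in PyMT TANs (0.85 ± 0.25, adjusted p = 0.0127, edgeR), while PyMT-Cxcr2-/- TANs gave a value of 0.21 ± 0.19 (adjusted p = 0.33, edgeR). Mcm7 gave a like picture, with 11.2, 14.1, 19.9 and 15.4 CPM in PyMT TANs, against 11.8, 11.4, 9.81 and 7.48 CPM in PyMT-Cxcr2-/- TANs and 10.1, 10.1, 9.86 and 9.06 CPM in WT BM neutrophils. Its log2 fold change was 0.72 ± 0.21 in PyMT TANs (adjusted p = 0.0125, edgeR) and 0.17 ± 0.17 in PyMT-Cxcr2-/- TANs (adjusted p = 0.384, edgeR). Mcm7 overlaps other annotated genes on both strands, 2 of them microRNAs within it, so its counts are uncertain. The macrophage marker sum was 1327, 2179, 2634 and 1833 CPM in PyMT TANs and 2180, 2205, 1691 and 1332 CPM in PyMT-Cxcr2-/- TANs. In both types of TANs, Mcm2, Mcm3, Mcm5, Mcm6, Mcm7 and Ccnd1 were lowest in the library with the lowest sum. The same held for Cdt1, Cdk4, Myc, Cdk14, Ccny and Cdk18, whose rises are described further on. This was not so for Mcm4, Pcna, Rrm1, Cdkn1a, Ccnd2 and Ccnd3, nor for Rpa2, Mcm8, Gadd45b, Gdf15 and Aen. The part of macrophage RNA in these genes was not tested.

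Cdt1, which loads the helicase on DNA, was at 11.4, 13.7, 14.3 and 12.4 CPM in PyMT TANs, at 9.62, 8.05, 9.56 and 7.71 CPM in PyMT-Cxcr2-/- TANs, and at 5.9, 5.54, 5.37 and 3.97 CPM in WT BM neutrophils. The 3 groups did not overlap, and Cdt1 rose 2.64-fold (log2 fold change 1.40 ± 0.21 SE, adjusted p = 0.000166, edgeR) and 1.83-fold (0.87 ± 0.18, adjusted p = 0.000699, edgeR). Pcna, the clamp that holds DNA polymerase on its template, was at 72.2, 74, 82 and 81.3 CPM in PyMT TANs, at 51.9, 42.9, 45.9 and 50.8 CPM in PyMT-Cxcr2-/- TANs, and at 29.9, 53.6, 30.6 and 34.2 CPM in WT BM neutrophils. It rose 2.21-fold in PyMT TANs (1.15 ± 0.18, adjusted p = 0.000279, edgeR). In PyMT-Cxcr2-/- TANs its 1.4-fold difference was under the fold limit (0.49 ± 0.16, adjusted p = 0.0169, edgeR), and BM replicate 2 was above all 4 TAN libraries of that group. Pcna has 2 named pseudogene copies.

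The subunits of ribonucleotide reductase, the enzyme that makes deoxynucleotides, diverged. Rrm1, the large subunit, was at 30, 22.3, 27.4 and 45.5 CPM in PyMT TANs, at 26.3, 26.3, 28.8 and 22.3 CPM in PyMT-Cxcr2-/- TANs, and at 13.4, 14.7, 12.1 and 13.1 CPM in WT BM neutrophils. It rose 2.5-fold (log2 fold change 1.32 ± 0.22 SE, adjusted p = 0.000315, edgeR) and 2.12-fold (1.08 ± 0.13, adjusted p = 4.72e-06, edgeR) without overlap. Rrm2, the small subunit, whose protein is limited to S phase and G2, was at 3.72, 7.46, 6.75 and 10.4 CPM in PyMT TANs, at 6.71, 7.15, 5.69 and 5.54 CPM in PyMT-Cxcr2-/- TANs, and at 11.6, 12.7, 10.8 and 10.1 CPM in WT BM neutrophils. It fell 1.66-fold in PyMT-Cxcr2-/- TANs (-0.73 ± 0.16, adjusted p = 0.00114, edgeR), and its log2 fold change in PyMT TANs was -0.58 ± 0.29 (adjusted p = 0.109, edgeR).

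Ccne2, an E-type cyclin that activates Cdk2 at the entry into S phase, was at 3.68, 1.84, 7.51 and 5.24 CPM in PyMT TANs, at 2.84, 2.17, 1.91 and 1.42 CPM in PyMT-Cxcr2-/- TANs, and at 4.85, 6.38, 5.97 and 6.46 CPM in WT BM neutrophils. It fell 2.61-fold in PyMT-Cxcr2-/- TANs (log2 fold change -1.38 ± 0.24 SE, adjusted p = 0.000182, edgeR), whereas the PyMT TANs spread across the BM range (-0.28 ± 0.38, adjusted p = 0.554, edgeR). Ccne2 overlaps a gene on the opposite strand. E2f1, the activating E2F factor, was at 4.99, 4.8, 4.02 and 5.28 CPM in PyMT TANs, at 7.76, 7.69, 6.59 and 6.94 CPM in PyMT-Cxcr2-/- TANs, and at 11.8, 9.84, 8.14 and 8.78 CPM in WT BM neutrophils. The groups lay in 3 separate ranges in this order. E2f1 fell 1.91-fold in PyMT TANs (-0.93 ± 0.22, adjusted p = 0.00327, edgeR), and PyMT-Cxcr2-/- TANs gave a value of -0.29 ± 0.17 (adjusted p = 0.132, edgeR). Tyms, Ccne1 and Cdc6, which make thymidylate, activate Cdk2 and load the helicase, were not called in any comparison, with means of 0.958 to 4.62 CPM over the 3 groups.

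**Figure D3:**
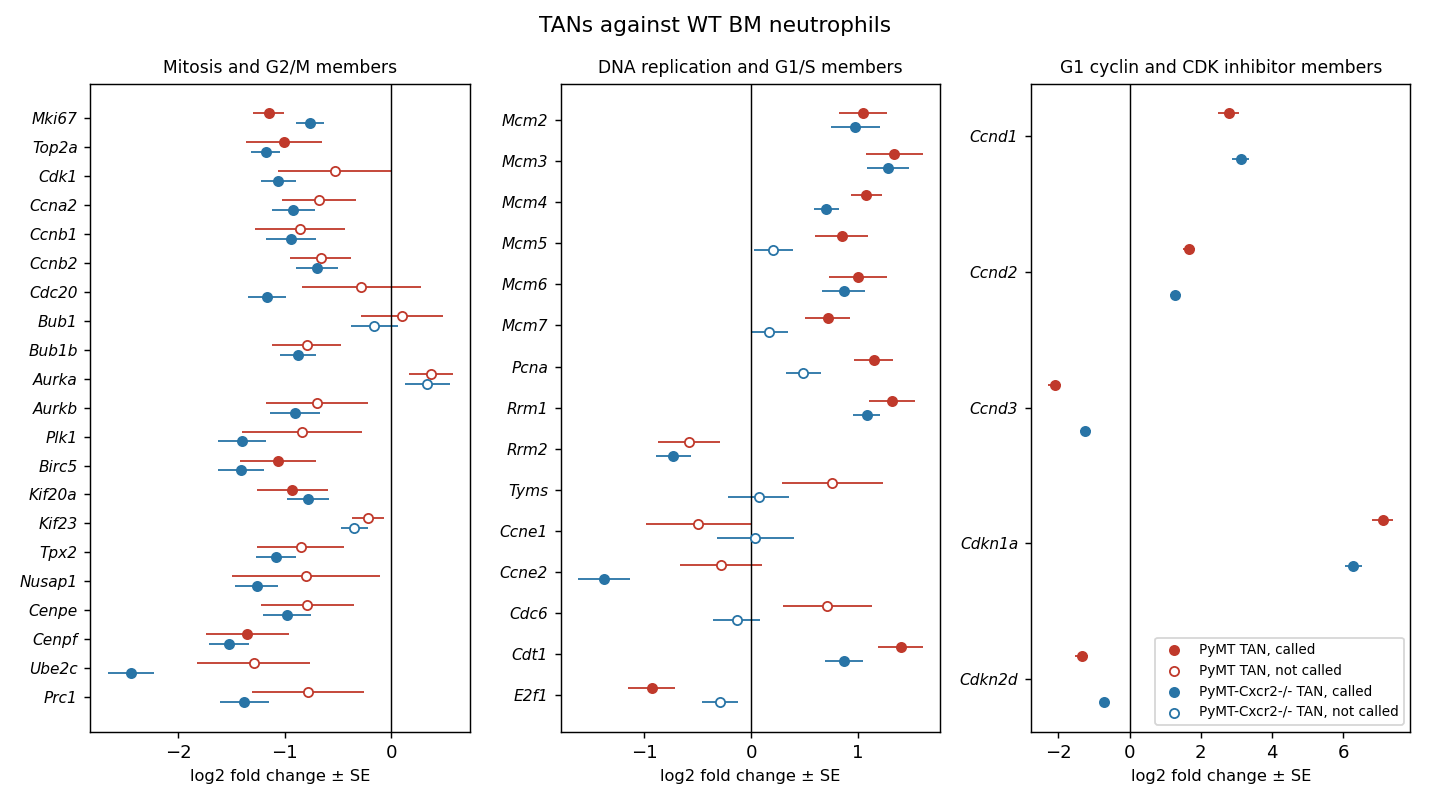
Log2 fold change ± SE from edgeR of each tested gene in PyMT TANs and in PyMT-Cxcr2-/- TANs against the same 4 WT BM neutrophil libraries, with mitosis, DNA replication and G1 genes in separate panels, filled points for called genes, open points for the rest and the vertical line at no change. Most mitosis genes lie left of the line in both, with larger error bars for PyMT TANs, most DNA replication genes lie right of it, and Cdkn1a reaches 7.11 and 6.28.

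Of the 21 mitosis genes tested, 5 were lower and 0 higher in PyMT TANs than in WT BM neutrophils, with a median log2 fold change of -0.79. The share of 23.8% lower was close to the 23.2% of all genes tested. The counts were 18 lower and 0 higher in PyMT-Cxcr2-/- TANs, with a median of -0.98, and the share of 85.7% lower stood against 25.1% of all genes. The number higher in either comparison was also 0 by DESeq2 and at an unadjusted p under 0.05 in edgeR. At that unadjusted p, 8 mitosis genes were lower in PyMT TANs and 19 in PyMT-Cxcr2-/- TANs, where 61.9% and 71.6% of all genes tested had such a p in either direction. Without overlap between the groups were 9 and 18 genes, all lower in TANs, where 29.7% and 33.3% of all genes tested were lower without overlap. The 5 genes called in both were Mki67, Top2a, Birc5, Kif20a and Cenpf, and the other 13 genes called in PyMT-Cxcr2-/- TANs were not called in PyMT TANs, which does not show that the TANs differ.

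Mki67, which encodes the proliferation antigen Ki-67 that coats mitotic chromosomes, was at 65.6, 68.9, 87.8 and 92.6 CPM in PyMT TANs, at 101, 84.9, 86.1 and 132 CPM in PyMT-Cxcr2-/- TANs, and at 169.9, 206, 179 and 188 CPM in WT BM neutrophils. It fell 2.22-fold in PyMT TANs (log2 fold change -1.15 ± 0.15 SE, adjusted p = 5.11e-05, edgeR) and 1.69-fold in PyMT-Cxcr2-/- TANs (-0.76 ± 0.13, adjusted p = 0.000173, edgeR). Per kb of exon, Mki67 was at 7.62 to 9 times the median of the other mitosis genes in BM libraries, at 9.21 to 15 times in PyMT-Cxcr2-/- TANs and at 4.09 to 15.6 times in PyMT TANs. Top2a, the topoisomerase that disentangles chromosomes, was at 10.8, 18.4, 37.1 and 38.1 CPM in PyMT TANs, at 24.2, 23.9, 20.4 and 22.3 CPM in PyMT-Cxcr2-/- TANs, and at 52.4, 74.4, 46.7 and 50.4 CPM in WT BM neutrophils. All TAN libraries were below the BM libraries, but PyMT replicates 3 and 4 were well above replicates 1 and 2. Top2a fell 2.01-fold (-1.01 ± 0.36, adjusted p = 0.0306, edgeR) and 2.27-fold (-1.18 ± 0.14, adjusted p = 5.89e-06, edgeR), with a small RNA gene on the same strand inside it.

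Cdk1, the kinase that starts mitosis, showed a wide gap within PyMT TANs, with 2.04 and 1.48 CPM in replicates 1 and 2 and 10.7 and 7.44 CPM in replicates 3 and 4. It was at 3.89, 3.59, 3.74 and 3.52 CPM in PyMT-Cxcr2-/- TANs and at 8.18, 9.34, 8.29 and 7.6 CPM in WT BM neutrophils. Cdk1 fell 2.08-fold in PyMT-Cxcr2-/- TANs (log2 fold change -1.06 ± 0.17 SE, adjusted p = 6.99e-05, edgeR), while PyMT TANs spanned the BM range (-0.53 ± 0.54, adjusted p = 0.428, edgeR). Its partner cyclin Ccnb1 was at 1.15, 2.37, 4.12 and 5.26 CPM in PyMT TANs, at 2.64, 4.31, 2.45 and 2.56 CPM in PyMT-Cxcr2-/- TANs, and at 6.2, 7.69, 5.2 and 5.9 CPM in WT BM neutrophils. Ccnb1 fell 1.92-fold in PyMT-Cxcr2-/- TANs (-0.94 ± 0.24, adjusted p = 0.0029, edgeR) and was not called in PyMT TANs (-0.86 ± 0.43, adjusted p = 0.106, edgeR). The related Ccnb2, with 2.89, 4.24, 3.89 and 5.96 CPM in PyMT TANs, against 4.54, 3.51, 4.2 and 3.96 CPM in PyMT-Cxcr2-/- TANs and 6.14, 9.43, 6.17 and 6.85 CPM in WT BM neutrophils, did not overlap with BM in either. It fell 1.62-fold in PyMT-Cxcr2-/- TANs (-0.70 ± 0.20, adjusted p = 0.00609, edgeR), with -0.66 ± 0.29 in PyMT TANs (adjusted p = 0.0707, edgeR). Ccnb1 and Ccnb2 have a named pseudogene copy each.

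Birc5, which encodes survivin, a subunit of the chromosomal passenger complex, was at 1.32, 1.74, 2.96 and 3.33 CPM in PyMT TANs, at 2.13, 1.81, 1.54 and 1.71 CPM in PyMT-Cxcr2-/- TANs, and at 5.21, 5.66, 4.23 and 5.67 CPM in WT BM neutrophils. It fell 2.09-fold (log2 fold change -1.06 ± 0.36 SE, adjusted p = 0.0251, edgeR) and 2.66-fold (-1.41 ± 0.22, adjusted p = 5.71e-05, edgeR). Cenpf, a kinetochore protein, was at 2.17, 4.53, 9.77 and 7.66 CPM in PyMT TANs, at 5.35, 3.92, 4.69 and 7.13 CPM in PyMT-Cxcr2-/- TANs, and at 15.9, 20.1, 15.1 and 14.7 CPM in WT BM neutrophils. Its fall was 2.55-fold (-1.35 ± 0.39, adjusted p = 0.0114, edgeR) and 2.87-fold (-1.52 ± 0.19, adjusted p = 9.22e-06, edgeR). Neither gene overlapped with BM in any TAN library. Kif20a, a kinesin of the dividing cell's midzone, was at 1.61, 2.79, 3.39 and 4.5 CPM in PyMT TANs, at 4.18, 3.07, 2.99 and 3.08 CPM in PyMT-Cxcr2-/- TANs, and at 5.87, 7.56, 5.8 and 5.7 CPM in WT BM neutrophils. It fell 1.9-fold (-0.93 ± 0.34, adjusted p = 0.0337, edgeR) and 1.72-fold (-0.78 ± 0.20, adjusted p = 0.00317, edgeR), with exons shared with a gene on the opposite strand.

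Ube2c, which tags mitotic cyclins for destruction, had the largest fall of the mitosis genes in PyMT-Cxcr2-/- TANs, where it was at 1.25, 1.14, 0.976 and 1.4 CPM, against 7.52, 6.97, 5.54 and 8.16 CPM in WT BM neutrophils. This was a 5.45-fold fall (log2 fold change -2.45 ± 0.22 SE, adjusted p = 4.85e-07, edgeR). In PyMT TANs it was at 0.871, 1.05, 5.55 and 3.31 CPM, so that replicate 3 reached the BM range (-1.29 ± 0.53, adjusted p = 0.0573, edgeR). Ube2c overlaps a gene on the opposite strand, as do Ccna2, Cdc20, Plk1, Nusap1 and Prc1. The other genes called in PyMT-Cxcr2-/- TANs were the cyclin Ccna2, the checkpoint and anaphase genes Cdc20 and Bub1b, the kinases Aurkb and Plk1, and Tpx2, Nusap1, Cenpe and Prc1, which act on the spindle, with folds from 1.84 (Bub1b) to 2.64 (Plk1). Bub1, Aurka and Kif23 were not called in any comparison. Aurka, the kinase of the spindle poles, had means of 12.2, 11.7 and 10 CPM in PyMT TANs, PyMT-Cxcr2-/- TANs and WT BM neutrophils, and Kif23, a kinesin of cytokinesis, 49.3, 44 and 60.7 CPM.

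Letters that the MuvB and NF-Y factors are known to bind are shown for 3 mitosis genes that were called lower in PyMT-Cxcr2-/- TANs, as were 18 of the 21 tested. Of the 42 genes, 34 were matched to a RefSeq start on GRCm38.p6, and 250 bases before each start were searched on both strands. Ccna2, Aurkb, Kif20a, Tpx2, Mcm4, Ccne2, Ccnd1 and Ccnd2 were not matched. The CHR letters, TTTGAA or TTCGAA, were found before 8 of 18 mitosis genes (44.4%), before 2 of 13 DNA replication genes (15.4%) and before 17.4% of all 27025 genes. CCAAT was found before 16 of the 18 (88.9%), 8 of the 13 (61.5%) and 34.5%. The genes shown are among those that have both. Ccnb1, Plk1, Birc5, Nusap1, Cenpe, Cenpf and Prc1, also called lower in PyMT-Cxcr2-/- TANs, had no CHR letters, and Birc5 and Nusap1 had no CCAAT either. Bub1, Aurka and Kif23, which were not called, had CCAAT. The 150 bases before the starts of Cdk1 (chr10:69352939-69353088, minus strand), Top2a (chr11:99024190-99024339, minus strand) and Cdc20 (chr4:118437353-118437502, minus strand) are printed 5′ to 3′ along the gene, with the CHR letters, CCAAT and the E2F letters named further on in capitals, in either orientation:
Cdk1: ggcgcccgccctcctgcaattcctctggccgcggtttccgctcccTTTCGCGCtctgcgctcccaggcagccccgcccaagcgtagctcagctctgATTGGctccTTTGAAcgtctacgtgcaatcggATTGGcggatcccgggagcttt
Top2a: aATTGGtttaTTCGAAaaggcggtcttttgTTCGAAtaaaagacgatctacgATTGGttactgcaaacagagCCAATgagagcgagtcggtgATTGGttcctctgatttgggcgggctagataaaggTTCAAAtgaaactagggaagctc
Cdc20: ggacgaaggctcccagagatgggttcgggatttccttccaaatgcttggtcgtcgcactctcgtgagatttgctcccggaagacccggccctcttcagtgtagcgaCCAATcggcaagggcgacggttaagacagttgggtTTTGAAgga
The windows hold 1, 3 and 1 CHR matches and 2, 4 and 1 CCAAT matches, and that of Cdk1 also holds 1 E2F match. No annotated exon lies in them. A match is a description of letters and not a binding site, and the absence of a match says only that these letters are not in the window searched.

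The letters of E2F sites (TTTGGCGC, TTTCCCGC, TTTCGCGC or TTTGCCGC, either strand) were found before 4 of the 13 DNA replication genes (30.8%), 1 of the 18 mitosis genes (5.56%), 0 of 3 G1 genes and 1.91% of all genes. Those 4 were Mcm5, Mcm6, Mcm7 and Cdc6. Mcm5 and Mcm6 are shown because the first was called in PyMT TANs alone and the second in both types of TANs. Their windows are printed in the same way, for Mcm5 (chr8:75109359-75109508, plus strand) and Mcm6 (chr1:128359706-128359855, minus strand):
Mcm5: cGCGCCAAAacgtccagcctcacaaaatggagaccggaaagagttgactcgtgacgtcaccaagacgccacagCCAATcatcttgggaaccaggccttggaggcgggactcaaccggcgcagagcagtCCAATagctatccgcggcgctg
Mcm6: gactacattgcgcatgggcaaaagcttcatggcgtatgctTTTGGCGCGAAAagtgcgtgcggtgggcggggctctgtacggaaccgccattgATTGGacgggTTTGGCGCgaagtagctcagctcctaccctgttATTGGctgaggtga
They hold 1 and 3 E2F matches, of which 2 in Mcm6 overlap each other, and 2 CCAAT matches each. Mcm2, Mcm3, Pcna, Rrm1 and Cdt1 had no E2F match in the bases searched and were among the genes that rose.

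The spread between the 4 PyMT TAN libraries was large for the mitosis genes. The mean log2 CPM over the 22 mitosis genes was 1.36, 1.70, 2.90 and 2.76 in PyMT TANs, 2.20, 2.03, 1.98 and 2.21 in PyMT-Cxcr2-/- TANs, and 3.08, 3.43, 3.04 and 3.18 in WT BM neutrophils. The TANs thus did not overlap with BM, with means of 2.18 ± 0.77 (SD, n = 4), 2.11 ± 0.12 and 3.18 ± 0.18. Replicates 3 and 4 of PyMT were both above replicates 1 and 2 in 18 of the 22 mitosis genes, with a median ratio of 2.60. This held in 8 of 15 DNA replication genes, with a median ratio of 1.40, and in 0 of 5 G1 genes, with a median ratio of 0.82. The same split by number held for PyMT-Cxcr2-/- TANs in 2 of 22 mitosis genes, with a median ratio of 0.99.

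The summed level of the 10 epithelial markers in PyMT TANs was 49.3, 61.9, 333 and 458 CPM, so that replicates 3 and 4 were again above replicates 1 and 2, although replicate 3 had the highest mitosis mean and replicate 4 the highest epithelial sum. In PyMT-Cxcr2-/- TANs the epithelial sum was 254, 327, 86.1 and 122 CPM, while the mean of the mitosis genes moved by no more than from 1.98 to 2.21. Other markers also had PyMT replicates 3 and 4 above replicates 1 and 2. They were the fibroblast and endothelial sum (27.4, 19.7, 43 and 43 CPM), the sum over 7 erythroid markers (58.6, 43.4, 93.6 and 59 CPM) and the macrophage gene Mrc1 (15.7, 30.8, 245 and 202 CPM). The macrophage sum and the sum over T and B cell markers did not split in this way. The part of epithelial RNA, or of RNA of these other cells, in the mitosis genes of PyMT replicates 3 and 4 was not tested. With PyMT replicates 1 and 2 alone, a comparison chosen after seeing the data, 18 mitosis genes were lower than in WT BM neutrophils and 0 higher, with a median log2 fold change of -1.79. The replicates kept are those with the lower mitosis genes, so a larger count and a lower median follow from the choice. The share of all genes called in this fit is not given here. The counts were 12 lower without replicate 3 and 9 lower without replicate 4. Of the DNA replication genes, 6 were then higher and 3 lower with replicates 1 and 2 alone, with a median of 0.49, and the calls of the 5 G1 genes were the same in number and direction.

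**Figure D4:**
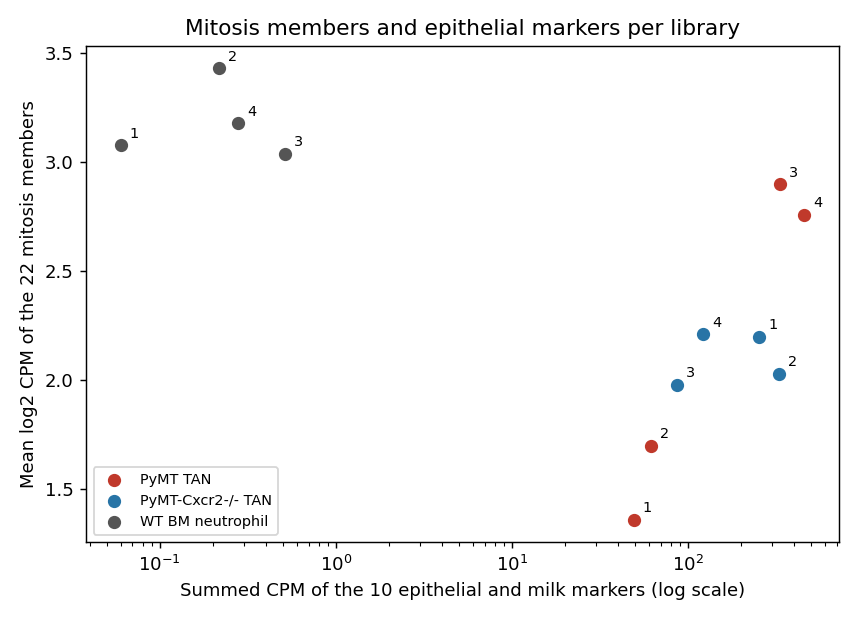
Mean log2 CPM of the 22 mitosis genes (vertical) against the summed CPM of 10 epithelial and milk markers (horizontal, log scale), with 1 point per library and the groups in colors. PyMT replicates 3 and 4, at 333 and 458 CPM of markers, lie at 2.90 and 2.76, replicates 1 and 2 at 1.36 and 1.70, and the PyMT-Cxcr2-/- TANs between 1.98 and 2.21.

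Markers of neutrophil precursors were given the same check, since dividing cells of the lineage carry the mitosis genes. The sum over 7 secondary granule markers, among them Ltf, Camp and Ngp, was 999 to 1655 CPM in PyMT TANs, 3944 to 10937 CPM in PyMT-Cxcr2-/- TANs and 43115 to 66069 CPM in WT BM neutrophils. All 7 were called lower in both types of TANs. Of the 8 promyelocyte markers (primary granule genes and others such as Cebpe and Gfi1), 7 were lower and 1, Srgn, was higher in both types of TANs. Between the TANs, 6 of the 7 secondary granule markers were called higher in PyMT-Cxcr2-/- TANs, where 0 mitosis genes were called. Of the promyelocyte markers, 6 were tested between the TANs and 0 were called in edgeR. The sum over 8 T and B cell markers was 12.3 to 52.8 CPM in TANs and 226 to 263 CPM in WT BM neutrophils, of which Cd3d alone gave 206 to 239.8 CPM in BM, while Cd2 was called higher in both types of TANs and Cd3e, Cd79b and Ms4a1 were not called in either. The sum over 7 erythroid markers was 23.7 to 93.6 CPM in TANs and 14.4 to 21.5 CPM in WT BM neutrophils, most of it Tfrc, the transferrin receptor of many growing cells, which was the only 1 of the 7 called higher, and Car1 was at 0 in all TAN libraries. Their part in the mitosis and DNA replication genes was not tested.

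The direct comparison asks whether the loss of Cxcr2 goes with a difference in these genes between TANs. Of the 41 genes, 0 were higher and 2 were lower in PyMT-Cxcr2-/- TANs, where 1.38% of all 18463 genes tested were higher and 0.596% lower. The median log2 fold change of the 41 genes was -0.30, with 34 below 0, and that of all genes was -0.07. The 2 genes called were Cdkn1a and Pcna, whose values by library are given above. Cdkn1a fell 1.87-fold (log2 fold change -0.90 ± 0.16 SE, adjusted p = 0.0182, edgeR) and Pcna 1.66-fold (-0.73 ± 0.13, adjusted p = 0.019, edgeR), and for both genes each PyMT-Cxcr2-/- library was below each PyMT library. By DESeq2, the adjusted p was 0.00018 and 0.00011. Neither passed with replicate numbers as a blocking term in edgeR (adjusted p = 0.12 for Cdkn1a and 0.15 for Pcna), and each was also lost when certain single libraries were left out.

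Among the mitosis genes, 0 were called in either direction between the TANs by edgeR, 0 by DESeq2, and 0 had an unadjusted p under 0.05, where 15.2% of all genes tested had such a p. Their median log2 fold change was -0.28, with 19 of 21 below 0. With PyMT replicates 1 and 2 alone it was 0.58, still with 0 calls, so the sign of the difference rests on PyMT replicates 3 and 4. Standard errors were between 0.18 for Mki67 and 0.70 for Nusap1. The largest difference was that of Ube2c, with a log2 fold change of -1.22 ± 0.59 (adjusted p = 0.367, edgeR), and a difference of this size did not pass the test with this spread.

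Among the DNA replication genes, the median was -0.45 and 13 of 15 were below 0. At an unadjusted p under 0.05, 6 were lower and 1 was higher, where 15.2% of all genes tested had such a p in either direction. Mcm4 and Cdt1 were lower in every PyMT-Cxcr2-/- library than in every PyMT library, as Pcna was, but had adjusted p of 0.111 and 0.141 in edgeR (log2 fold changes of -0.45 ± 0.13 and -0.60 ± 0.19). E2f1 was the only DNA replication gene higher without overlap (0.57 ± 0.22, adjusted p = 0.241, edgeR), and it was called by DESeq2. Over all 41 genes, 3 were higher and 4 lower without overlap, where 6.89% and 5.05% of all genes were. Ccnd3 (0.78 ± 0.22, adjusted p = 0.0966, edgeR) and Cdkn2d (0.56 ± 0.21, adjusted p = 0.217, edgeR) were the other 2 that were higher without overlap, and DESeq2 called Ccnd3. Ccnd1 (0.26 ± 0.26, adjusted p = 0.743) and Ccnd2 (-0.45 ± 0.17, adjusted p = 0.207, edgeR) overlapped.

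**Figure D5:**
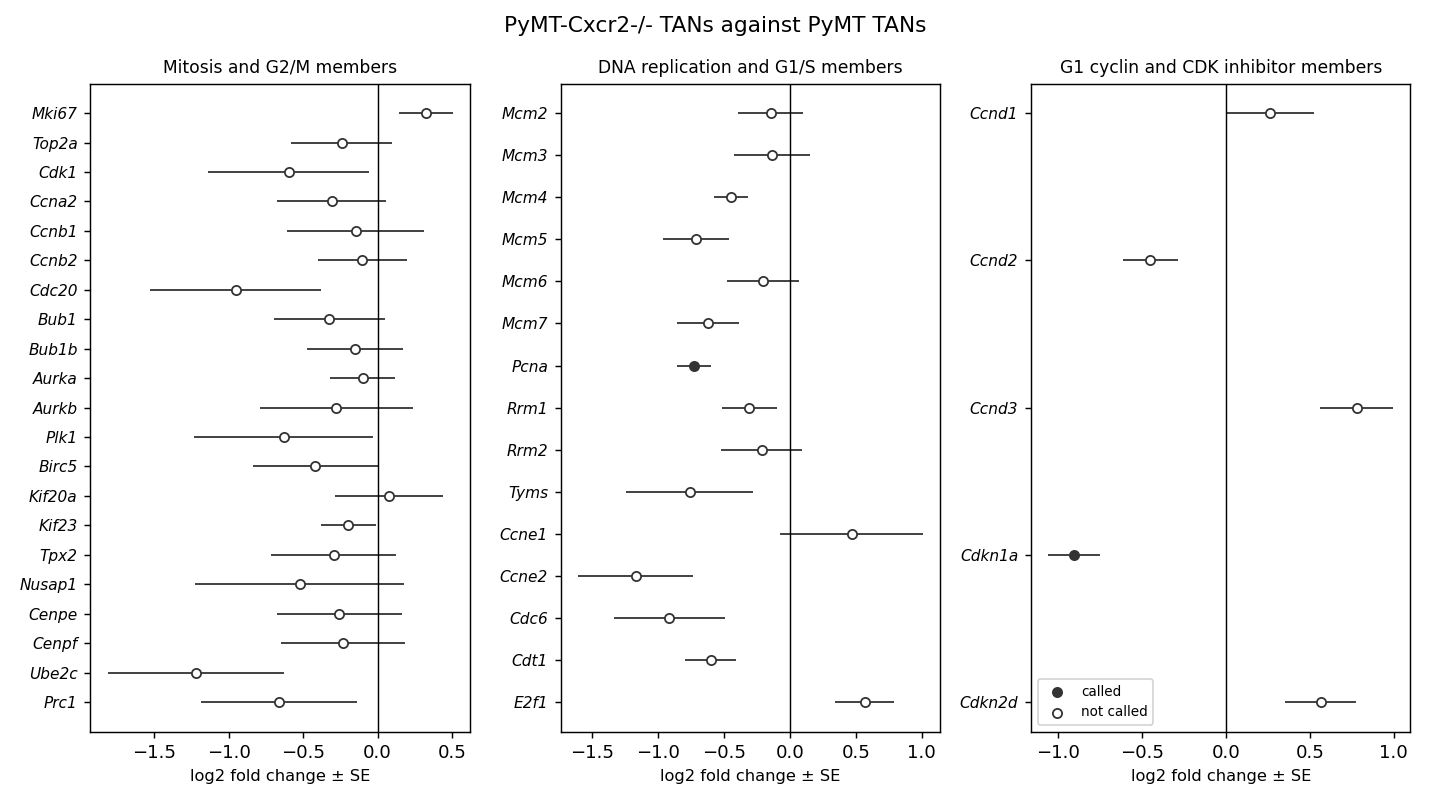
Log2 fold change ± SE from edgeR of each tested gene in PyMT-Cxcr2-/- TANs against PyMT TANs, in separate panels for mitosis, DNA replication and G1 genes, with the vertical line at no change. The 2 called genes (filled points) are Pcna, at -0.73, and Cdkn1a, at -0.90, and the error bars of most mitosis genes cross the line.

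Other genes of the same pathways were counted from further lists. Of 46 other mitosis genes tested, 16 were lower and 2 higher in PyMT TANs than in WT BM neutrophils (median log2 fold change -0.56), and 29 were lower and 3 higher in PyMT-Cxcr2-/- TANs (median -0.75). The shares lower were 34.8% and 63%, against 23.2% and 25.1% of all genes. With PyMT replicates 1 and 2 alone, 29 were lower and 1 higher, a count favored by the choice of the replicates with the lower mitosis genes. Nuf2, a kinetochore subunit, fell in PyMT TANs (-1.85 ± 0.36, adjusted p = 0.00112, edgeR), and so did the kinesin Kif18b (-1.67 ± 0.63, adjusted p = 0.0388, edgeR). Kif18b fell in PyMT-Cxcr2-/- TANs as well (-1.71 ± 0.31, adjusted p = 0.000256, edgeR), along with Sgo2a, which protects centromere cohesion (-2.10 ± 0.35, adjusted p = 0.000132, edgeR), and Cdca8, of the passenger complex (-1.60 ± 0.24, adjusted p = 4.87e-05, edgeR). Cenpn, a centromere protein, went the other way, with 1.23 ± 0.46 in PyMT TANs (adjusted p = 0.041, edgeR) and 1.07 ± 0.32 in PyMT-Cxcr2-/- TANs (adjusted p = 0.00886, edgeR). Wee1, the kinase that restrains Cdk1, rose in PyMT-Cxcr2-/- TANs (1.29 ± 0.26, adjusted p = 0.000554, edgeR). Between the TANs, 1 was higher and 0 lower, namely Cdc25b, a phosphatase that activates Cdk1 (1.04 ± 0.19, adjusted p = 0.0203, edgeR).

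Of 56 other DNA replication genes, 15 were higher and 6 lower in PyMT TANs (median 0.23), against 15 and 9 in PyMT-Cxcr2-/- TANs (median -0.03). The share higher, 26.8% in both, was below the 30.1% and 34.4% of all genes, and the shares lower, 10.7% and 16.1%, were below 23.2% and 25.1%. With PyMT replicates 1 and 2 alone, 15 were higher and 14 lower, in the fit chosen after seeing the data, whose share of all genes is not given. Among the largest rises in PyMT TANs was that of Mcm8, a helicase of DNA repair (2.20 ± 0.52, adjusted p = 0.00379, edgeR). The rises in PyMT-Cxcr2-/- TANs were led by Rpa2 (1.80 ± 0.15, adjusted p = 2.8e-07, edgeR), a subunit of the protein that covers single-stranded DNA. Cdc45, which joins the MCM ring to form the active helicase, fell in both (-2.17 ± 0.19, adjusted p = 3.45e-06, and -1.81 ± 0.14, adjusted p = 1.64e-07, edgeR), and so did the polymerase subunit Pola2 (-1.56 ± 0.17, adjusted p = 1.49e-05, and -1.46 ± 0.15, adjusted p = 1.73e-06, edgeR). The rise of the MCM subunits was thus not shared by all parts of the replication machinery. Between the TANs, only Rfc5, of the clamp loader, was called (-0.74 ± 0.17, adjusted p = 0.046, edgeR).

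Among further G1 regulators, 9 of 36 were higher and 14 lower in PyMT TANs, against 8 and 14 of 37 in PyMT-Cxcr2-/- TANs. The shares higher, 25% and 21.6%, were below the 30.1% and 34.4% of all genes, and the shares lower, 38.9% and 37.8%, were above 23.2% and 25.1%. Cdk4, the partner of the D-type cyclins, rose (2.75 ± 0.27, adjusted p = 6.75e-06, and 2.69 ± 0.20, adjusted p = 1.1e-07, edgeR), as did Myc (3.46 ± 0.44, adjusted p = 5.34e-05, and 3.60 ± 0.27, adjusted p = 1.09e-07, edgeR), from 0.447 to 1.02 CPM in WT BM neutrophils. Gadd45b, a stress gene, rose as well (3.09 ± 0.12, adjusted p = 2.26e-08, and 3.43 ± 0.16, adjusted p = 1.88e-09, edgeR). Tfdp1, the partner of E2F factors, was at 232 to 284 CPM in WT BM neutrophils, 21.4 to 30.8 CPM in PyMT and 45 to 69.1 CPM in PyMT-Cxcr2-/- TANs. It fell in both (log2 fold change -3.17 ± 0.15, adjusted p = 5.56e-08, and -2.12 ± 0.13, adjusted p = 2.27e-08, edgeR), and E2f2 fell in the same manner (-2.86 ± 0.21, adjusted p = 8.2e-07, and -1.57 ± 0.17, adjusted p = 2.29e-06, edgeR). Both were higher in PyMT-Cxcr2-/- than in PyMT TANs, E2f2 by 1.22 ± 0.24 (adjusted p = 0.0263, edgeR) and Tfdp1 by 0.99 ± 0.18 (adjusted p = 0.0201, edgeR), and they were the only genes of this list called between the TANs. Myb, a factor of dividing precursors, fell from 24.4 to 26.2 CPM in WT BM neutrophils to 0.332 to 1.09 CPM in PyMT and 0.686 to 2.31 CPM in PyMT-Cxcr2-/- TANs (-5.03 ± 0.31, adjusted p = 2.92e-07, and -3.98 ± 0.27, adjusted p = 4.86e-08, edgeR).

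Of 24 other cyclins and CDKs, 7 were higher and 9 lower in PyMT TANs, against 7 and 4 in PyMT-Cxcr2-/- TANs. The share higher was 29.2% in both, against 30.1% and 34.4% of all genes, and the shares lower were 37.5% and 16.7%, against 23.2% and 25.1%. Cdk18 rose in both (6.21 ± 0.63, adjusted p = 9.06e-06, and 6.06 ± 0.47, adjusted p = 1.24e-07, edgeR), from 0 to 0.196 CPM in BM. Cdk14, which pairs with Ccny at the membrane, rose (2.67 ± 0.28, adjusted p = 1.11e-05, and 3.15 ± 0.19, adjusted p = 1.42e-08, edgeR), and so did Ccny (1.33 ± 0.13, adjusted p = 5.53e-06, and 1.10 ± 0.13, adjusted p = 7.54e-06, edgeR). Ccno led the rises in PyMT-Cxcr2-/- TANs (8.08 ± 0.40, adjusted p = 4.22e-09, edgeR). It alone of this list was called between the TANs, as higher (4.95 ± 0.75, adjusted p = 0.014, edgeR). Ccno was at 19.9 to 34.7 CPM in PyMT-Cxcr2-/- TANs, 0.211 to 2.43 CPM in PyMT TANs and 0 to 0.187 CPM in BM. Of 21 targets of p53 other than Cdkn1a, 12 were higher and 1 lower in PyMT TANs (median 1.39), against 14 and 1 in PyMT-Cxcr2-/- TANs (median 1.27). The shares higher were 57.1% and 66.7%, against 30.1% and 34.4% of all genes. Among them were Gdf15 (2.13 ± 0.25, adjusted p = 3.09e-05, and 2.35 ± 0.20, adjusted p = 2.45e-07, edgeR) and Aen, a nuclease (2.62 ± 0.32, adjusted p = 3.51e-05, and 2.04 ± 0.24, adjusted p = 5.67e-06, edgeR). The target that was lower in both was Trp53inp1 (-2.21 ± 0.18, adjusted p = 1.56e-06, and -1.86 ± 0.16, adjusted p = 3.44e-07, edgeR). Mdm2 and Ccng1, which are classical p53 targets too, were not called, with -0.43 ± 0.19 and 0.03 ± 0.13 in PyMT TANs and -0.29 ± 0.10 and -0.35 ± 0.09 in PyMT-Cxcr2-/- TANs. Between the TANs, Tnfrsf10b was the only p53 target called (1.08 ± 0.21, adjusted p = 0.0248, edgeR). Of the 39 genes with the largest called changes in these further lists, 15 share exons with another gene, among them Sgo2a, Cdca8, Cdc45, Cdk4, Cdk18, Myb, Cdc25b and Rfc5.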

How the data were processed

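RNA-seq was done on neutrophils sorted from tumors and BM, with 4 libraries in each of 3 groups. The authors depleted rRNA, made directional libraries, sequenced paired-end reads, used STAR for alignment to mm10 and HTSeq for counts per gene. The deposited values are raw counts per Ensembl gene, with no normalization. The annotation release and the strand setting of the counting are not given in the sources used here, so that reads of overlapping genes on opposite strands may not have been separated.

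Counts on genes were 25032704 to 51351569 per library, and rows that name no gene were left out of library sizes. Identifiers were matched to GENCODE M21 for 55154 of 55335 genes. Libraries of one group differed by more than counting noise (chi-square per degree of freedom 22.6 to 134), and none was merged. Each comparison was fitted on its own 8 libraries over all genes with edgeR 4.0.16 in R 4.3.3 (TMM scaling, filterByExpr, robust quasi-likelihood test, prior count 2 for log values), with Benjamini-Hochberg adjustment over all genes tested. CPM are scaled to TMM-adjusted library sizes. DESeq2 1.42.0 and other choices were alternatives. The fitting was tested on simulated data. The 42 genes and all lists were chosen with earlier results of these data known. Values by library are given for Mki67, Top2a, Cdk1, Ccnb1, Pcna, Mcm2, E2f1, the 5 G1 genes, genes called between the TANs, the 3 largest and 3 smallest called changes of the mitosis and of the DNA replication genes against BM, and called genes that went against the majority of their group. Nusap1, Plk1, Bub1b, Aurka, Kif23, Mdm2 and Ccng1, which this rule does not pick, were singled out after their values were seen. Of each further list, the 3 largest called rises and falls with an average log2 CPM of at least 0 could be named. Promoter sequences are from RefSeq on GRCm38.p6.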

Additional observations from a re-analysis of the deposited data

Results flagged for a closer look

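In groups of 4 libraries, a value was marked when its gap to the nearest other library, divided by the range of the group, was above Dixon's 95% limit. Of 78 sets, which are 26 genes in 3 groups, 6 were marked, and chance marks about 5% of sets. Ccnb1 in PyMT-Cxcr2-/- replicate 2 was at 4.31 CPM, with 2.45 to 2.64 CPM in the others. Kif20a was at 4.18 CPM in PyMT-Cxcr2-/- replicate 1, with 2.99 to 3.08 CPM in the others, and at 7.56 CPM in BM replicate 2, with 5.7 to 5.87 CPM in the others. Cdkn1a was at 440.0 CPM in PyMT replicate 1, with 293 to 306 CPM in the others, and at 1.26 CPM in BM replicate 1, with 2.82 to 3.11 CPM in the others. Cdkn2d was at 131 CPM in PyMT-Cxcr2-/- replicate 4, with 89.1 to 91.8 CPM in the others.

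The changes against BM differed between the types of TANs for 2 genes, by the direct edgeR test of PyMT-Cxcr2-/- against PyMT TANs. Pcna had a log2 fold change of 1.15 against BM in PyMT TANs and 0.49 in PyMT-Cxcr2-/- TANs, and -0.73 in the direct test. Cdkn1a had 7.11 and 6.28, and -0.90 in the direct test. The direct test is a separate fit on the TAN libraries, so its values are not the arithmetic differences of the others.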

How the results depend on the processing

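The number of the 41 genes lower in PyMT TANs than in BM (8) was the least stable count against BM. It was 13 with the 12 libraries in one fit, 4 at an adjusted p under 0.01, and 14 with GC content and gene length adjusted, with or without the replicate block. It was 5 to 15 with 1 library left out, with 15 without PyMT replicate 3, 13 without PyMT replicate 4, and 5 without PyMT replicate 2 or BM replicate 2. With PyMT replicates 1 and 2 alone, chosen after seeing the data and with the lower mitosis genes, it was 23. In PyMT-Cxcr2-/- TANs against BM, a limit of 2-fold gave 5 higher (9) and 12 lower (22). The mean difference of the genes in PyMT TANs against BM (-0.18) was -0.34 to -0.00 with 1 library left out and -0.60 with PyMT replicates 1 and 2 alone, and that in PyMT-Cxcr2-/- TANs (-0.32) was -0.35 to -0.25.

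Between the TANs, genes higher (0) numbered 1 with no filter on low counts or with 12 libraries in one fit, 2 by DESeq2 and 0 to 1 with 1 library left out (1 without PyMT replicate 1). Genes lower (2) numbered 0 with the replicate block, at 2-fold, at an adjusted p under 0.01 and with GC content, gene length and the replicate block together, 1 with GC content and gene length adjusted or PyMT replicates 1 and 2 alone, and 0 to 2 with 1 library left out (0 without PyMT replicate 2, PyMT-Cxcr2-/- replicate 3 or replicate 4). Pcna and Cdkn1a had an adjusted p of 0.15 and 0.12 with the block. Replicate numbers did not pair the libraries: deviations of same-numbered libraries correlated at -0.0417 on average (-0.206 to 0.0833), against 0.0141 for other numbers. The mean difference between the TANs (-0.14) was -0.31 to 0.02 with 1 library left out and 0.28 with PyMT replicates 1 and 2 alone.

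Among the 26 genes with values by library, reversals of sign occurred only between the TANs, in genes that were not called. The signs of the other genes were not compared between fits. With PyMT replicates 1 and 2 alone, the log2 fold change was 0.22 for Birc5, 0.75 for Ccnb1, 0.17 for Ccnb2, 1.05 for Cdk1, 0.64 for Cenpf, 0.02 for Mcm2, 0.24 for Mcm6, 0.15 for Rrm2, 0.62 for Top2a and 0.29 for Ube2c. With GC content, gene length and the block it was 0.14 for Ccnb1, 0.03 for Cenpf and 0.01 for Top2a, and with the block alone 0.03 for Ccnb1. With 1 library left out, it was -0.45 to 0.00 for Top2a, -0.38 to 0.20 for Ccnb1, -0.21 to 0.11 for Ccnb2, -0.09 to 0.32 for Kif20a, -0.47 to 0.11 for Cenpf, -0.32 to 0.03 for Mcm2, -0.29 to 0.07 for Mcm3 and -0.38 to 0.04 for Rrm2. The cause was not tested. Over all fits, mitosis genes lower numbered 1 to 18 in PyMT TANs and 10 to 18 in PyMT-Cxcr2-/- TANs against BM. With 4 libraries a group and the spread among PyMT TANs, small differences of the mitosis genes could not be called.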
